A study of Mus musculus with 6 samples.

Results

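The Wnt ligands of the mouse uterus were taken as 10 genes: Wnt2, Wnt4, Wnt5a, Wnt5b, Wnt6, Wnt7a, Wnt7b, Wnt10a, Wnt11 and Wnt16. They were found by name, as every probe set whose platform annotation gives 1 gene symbol equal to one of the 10, which gave 19 probe sets among 41420 on the array and 10 genes among 16813. The probe sets were matched by name alone, but the 10 genes were chosen with earlier results of these arrays known. Uteri were collected from intact female mice aged 2 weeks, and 3 arrays were made of the genotype Arid1a f/f and 3 of the genotype Arid1a d/d. In the usual notation f is an allele flanked by loxP sites and d is the deleted allele. Neither the recombinase that made the deletion, nor the cells in which it acts, nor whether separate animals were used for the arrays is given in the sources used here. The product of Arid1a is part of SWI/SNF, a complex that moves nucleosomes, and the title of the study places it in the development of endometrial glands.

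Wnt proteins are secreted, lipid-modified signals that bind Frizzled receptors on nearby cells. Some act by stabilizing beta-catenin, which then works with TCF and LEF factors on target genes, and others act on cell polarity and movement without it. In the young mouse uterus Wnt7a is made by the luminal epithelium, and mice that lack it form no normal uterine glands. Wnt7b and Wnt11 are also known from the epithelium, whereas Wnt2, Wnt4, Wnt5a and Wnt16 are known from the stroma. Wnt5a from the mesenchyme is needed for the growth of the posterior reproductive tract, and Wnt4 for formation of the Müllerian duct and, later, for decidualization of the stroma. For this account Wnt7a, Wnt7b and Wnt11 were grouped as 3 epithelial ligands, Wnt2, Wnt4, Wnt5a and Wnt16 as 4 stromal ligands, and Wnt5b, Wnt6 and Wnt10a were left without a compartment. The compartments are background knowledge and were not read from the arrays.

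None of the 10 genes passed the threshold on the whole array, but 3 of them, Wnt7a, Wnt16 and Wnt6, lay nearest to it. The sequence upstream of these 3 genes is shown because these are the members nearest to the threshold. Each line gives the bases from 250 to 51 before the annotated start, from RefSeq (GRCm38.p6), 5′ to 3′ on the strand of the gene. The window of Wnt7a is chr6:91411404-91411603 on the minus strand, that of Wnt16 is chr6:22287977-22288176 on the plus strand, and that of Wnt6 is chr1:74771642-74771841 on the plus strand. Capitals mark the GC box GGGCGG, bound by Sp1, and the CCAAT box, read on both strands.
Wnt7a: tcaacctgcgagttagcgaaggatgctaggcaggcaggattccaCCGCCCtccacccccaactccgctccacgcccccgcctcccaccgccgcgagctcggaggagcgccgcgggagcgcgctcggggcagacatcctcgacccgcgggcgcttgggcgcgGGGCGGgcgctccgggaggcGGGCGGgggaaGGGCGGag
Wnt16: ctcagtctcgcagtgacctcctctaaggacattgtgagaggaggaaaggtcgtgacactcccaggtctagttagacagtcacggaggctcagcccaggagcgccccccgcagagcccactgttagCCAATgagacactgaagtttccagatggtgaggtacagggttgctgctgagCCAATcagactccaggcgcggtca
Wnt6: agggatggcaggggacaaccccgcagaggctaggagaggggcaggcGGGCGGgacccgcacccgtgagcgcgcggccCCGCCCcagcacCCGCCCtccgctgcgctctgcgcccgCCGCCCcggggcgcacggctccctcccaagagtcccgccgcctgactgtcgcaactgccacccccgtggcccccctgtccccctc
The windows of Wnt7a and Wnt6 each held 4 GC boxes, with 28 and 22 CpG dinucleotides. The window of Wnt16 held 0 GC boxes, 2 CCAAT boxes and 7 CpG. A GC box was present in 24.6% of 32851 windows of the same length in the RefSeq table and a CCAAT box in 28.4%, and the median window held 4 CpG. The TCF/LEF core CTTTGAT, present in 2.64% of windows, did not occur in these 3 on either strand. These are matches of letters in a short window and say nothing of what binds there. The promoter table held 7 of the 10 genes, without Wnt5a, Wnt7b and Wnt10a.

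The deposited values are intensities processed with RMA, and every level below is the log2 of such a value. The median over all probe sets and arrays was 2.69, and 3 of the 19 Wnt probe sets lay below it in both genotypes, where background limits what a value can show. Array medians ran from 6.34 to 6.59 in intensity, and pairs of arrays correlated at 0.987 to 0.995. Arid1a, the gene targeted, stood at 7.54, 7.58 and 7.71 in f/f and at 6.98, 7.06 and 7.04 in d/d, where the limma adjusted p among all probe sets was 0.0342. Whether its probe set lies in the deleted part is not given in the sources used here. All 11 measured epithelial markers, all 15 stromal markers and all 8 smooth muscle markers lay above the median of all probe sets, as did 6 of 7 measured markers of oviduct and ovary. Over all genes, by brightest probe set, 65.3% lay above it. The array d/d 1 stood apart from the others of its genotype: on the first principal component, which held 42.6% of the variance, it lay at -11.9, among the f/f arrays at -29.4 to -6.95 and away from d/d 2 and d/d 3 at 37.2 and 28.8. Results that rest on it are therefore given with and without it. Differences are d/d minus f/f with their standard error from limma, and adjusted p-values are Benjamini-Hochberg values over all 16813 genes, each by its brightest probe set, unless all 41420 probe sets are named. An adjusted p below 0.05 counted as passing. The level of one probe set is not comparable with that of another, so the level of each gene is compared only with itself. Summed intensities of a list are likewise compared only between arrays, and the brightest probe sets weigh most in them.

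**Figure D1:**
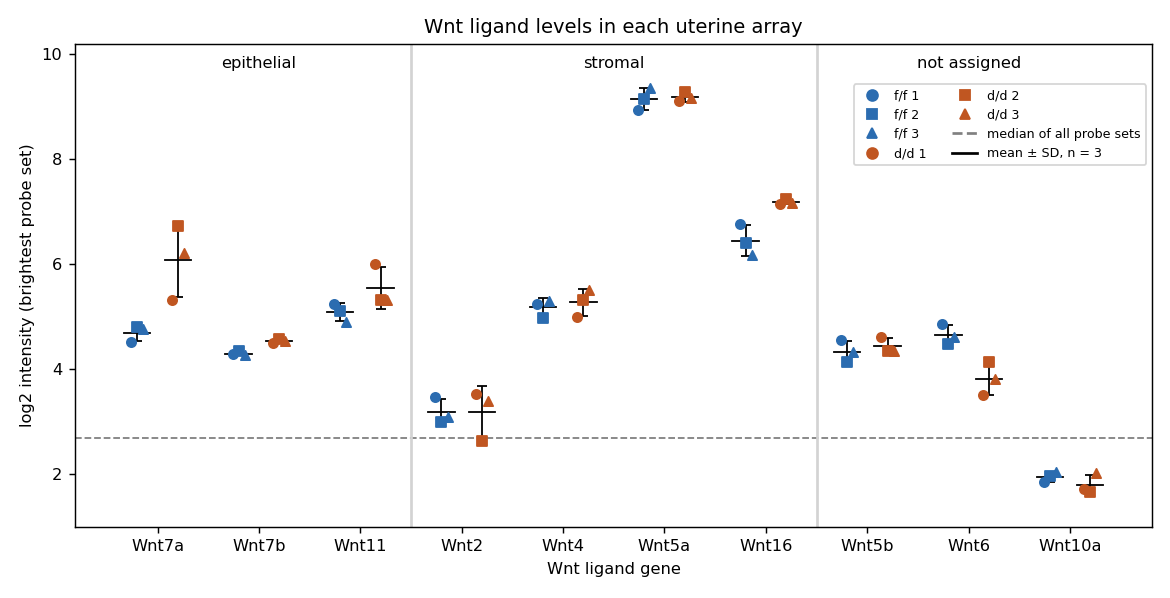
Log2 intensity of the brightest probe set of each Wnt ligand gene (vertical axis) in each of the 6 arrays, with f/f in blue and d/d in orange; bars are mean ± SD of 3 arrays and the dashed line is the median of all probe sets, 2.69. The d/d points of Wnt7a, Wnt7b, Wnt11 and Wnt16 all lie above the f/f points, those of Wnt6 all lie below, and those of the other 5 genes overlap.

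Across the 10 genes, 0 passed in either direction, where 1.14% of all genes passed. Over probe sets the count was 0 of 19, where 0.524% of all probe sets passed, and 6 of 19 had an unadjusted limma p below 0.05, where 9.85% of all did. At an unadjusted limma p below 0.05 there were 5 of 10 genes, 4 higher and 1 lower in d/d, where 5.29% of all genes were higher and 6.88% lower by that rule, 12.2% together. In these same 5 genes the d/d and f/f arrays did not overlap, as was so for 16.5% of all genes. The members were chosen with earlier results of these arrays known, and no test was made of the list.

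Wnt7a, the ligand of the luminal epithelium, had the largest difference of the 10 genes by brightest probe set. Its brightest probe set (1423367_at) stood at 4.52, 4.80 and 4.77 in f/f 1, 2 and 3 and at 5.32, 6.74 and 6.22 in d/d 1, 2 and 3. All d/d arrays lay above all f/f arrays, and d/d 1 lay closest to f/f. The means were 4.70 ± 0.15 in f/f and 6.09 ± 0.72 in d/d (SD, n = 3), so the spread within d/d was wide. The log2 difference was 1.39 ± 0.32 (SE), with a 95% interval of 0.66 to 2.12, or 2.62-fold, and it did not pass (limma adjusted p = 0.102). Without d/d 1 the difference was 1.78 with a limma adjusted p of 0.00247, while without any other single array it was 1.07 to 1.44 and the adjusted p was above the threshold, up to 0.298. In the fit without d/d 1, 821 of all genes passed in place of 192.

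The other probe sets of Wnt7a did not show this difference. The probe set 1447647_at stood at 3.74, 3.83 and 3.74 in f/f and at 3.67, 3.72 and 3.81 in d/d. Its log2 difference was -0.037, with a 95% interval of -0.23 to 0.16, which does not reach the value of the brightest probe set. The third, 1458334_at, lay below 2.69 on all 6 arrays, at 1.76 and 1.72 in the mean, and had a log2 difference of -0.035. The mean over the 3 probe sets gave 0.44 for the gene (limma adjusted p = 0.225). By such means the differences of Wnt6 (-0.74), Wnt16 (0.74) and Wnt11 (0.47) were larger in size. The Wnt7a difference thus rests on 1 of its 3 probe sets, and which transcripts each of them reads is not given in the sources used here.

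Wnt7b, a close relative of Wnt7a known from the same epithelium, had a small difference. Its brighter probe set (1420892_at) stood at 4.29, 4.34 and 4.28 in f/f and at 4.50, 4.58 and 4.53 in d/d. The groups did not overlap and each was tight, with an SD of 0.04 in both. The log2 difference was 0.23 ± 0.078 (SE; 95% interval 0.052 to 0.42; limma adjusted p = 0.270). Its dimmer probe set, below 2.69 on all arrays, had a log2 difference of 0.20.

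Wnt11, which signals largely without beta-catenin and is known from uterine epithelium, was measured by 1 probe set at 5.24, 5.11 and 4.90 in f/f and 6.01, 5.32 and 5.33 in d/d. Here d/d 1 was the highest array, whereas d/d 2 and d/d 3 lay just above f/f 1. The log2 difference of 0.47 ± 0.19 (SE) did not pass (95% interval 0.014 to 0.92; limma adjusted p = 0.394), and without d/d 1 it was 0.24. Wnt7a and Wnt11 thus differed in which d/d array stood highest.

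Wnt16, a ligand of the stroma beneath the luminal epithelium, was the member with the smallest adjusted p. It stood at 6.77, 6.41 and 6.18 in f/f and at 7.15, 7.25 and 7.18 in d/d. The d/d arrays lay close together, with an SD of 0.05 against 0.29 in f/f, and all were above f/f. The log2 difference was 0.74 ± 0.15 (SE; 95% interval 0.40 to 1.08), or 1.67-fold, and it did not pass (limma adjusted p = 0.0689). It passed without f/f 1 (0.89, limma adjusted p = 0.0385) and without d/d 1 (0.76, limma adjusted p = 0.0408), and without each of the other arrays the adjusted p was 0.188 to 0.265. The array d/d 1 was the lowest of the d/d arrays, by a small margin, and lay well above f/f 1, the highest of the f/f arrays.

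The other stromal ligands had groups that overlapped. Wnt5a, by its brightest of 4 probe sets (1436791_at), stood at 8.94, 9.15 and 9.36 in f/f and at 9.11, 9.28 and 9.17 in d/d. The log2 difference was 0.038 ± 0.12 (SE), and its 95% interval of -0.24 to 0.32 does not reach the value of Wnt16. The other 3 probe sets of Wnt5a had log2 differences of 0.099, -0.15 and -0.063, all with overlapping groups. Wnt4 stood at 5.25, 4.99 and 5.30 in f/f and at 4.995, 5.33 and 5.51 in d/d by its brighter probe set, a log2 difference of 0.10 ± 0.15 (SE; 95% interval -0.25 to 0.45). Its dimmer probe set gave 0.15. Wnt2 stood at 3.47, 3.00 and 3.10 in f/f and at 3.54, 2.64 and 3.41 in d/d, close to the median of all probe sets, with a log2 difference of 0.0036 ± 0.24 (SE; 95% interval -0.55 to 0.56). The limma adjusted p of Wnt5a, Wnt4 and Wnt2 was 0.944, 0.878 and 0.998. The Wnt2 interval is the widest of these 3, and it leaves room for a moderate change either way.

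Wnt6, a ligand known from the decidualizing uterus, was the 1 member whose d/d arrays all lay below all f/f arrays, and this was so for both of its probe sets. The brighter (1419708_at) stood at 4.87, 4.49 and 4.62 in f/f and at 3.51, 4.13 and 3.81 in d/d. The dimmer (1435980_x_at) stood at 3.75, 3.38 and 3.58 in f/f and at 2.83, 2.98 and 2.95 in d/d. In both probe sets d/d 1 was the lowest array. The log2 difference of the brighter was -0.84 ± 0.17 (SE; 95% interval -1.23 to -0.45), with f/f at 1.79 times the d/d level, and it did not pass (limma adjusted p = 0.0744). The dimmer had a log2 difference of -0.65 ± 0.11 (SE), the smallest adjusted p of the 19 over all probe sets (limma adjusted p = 0.0567), and its suffix marks probes that can bind related sequences. The mean of both gave -0.74, which passed (limma adjusted p = 0.0484). The brighter probe set passed without d/d 1 (-0.69, limma adjusted p = 0.0402), and without each of the other arrays its adjusted p was 0.0784 to 0.236.

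Wnt10a, a ligand known from teeth and skin appendages, and Wnt5b, a close relative of Wnt5a, had overlapping groups. Wnt10a, the next measured gene after Wnt6 on the chromosome in RefSeq (GRCm38.p6), stood at 1.85, 1.96 and 2.04 in f/f and at 1.71, 1.67 and 2.02 in d/d. These levels lie below 2.69 on all 6 arrays, so the array cannot show whether Wnt10a differs together with its neighbour. The gene on the other side of Wnt6, Prkag3, was as dim (1.80 and 1.79). Wnt5b had log2 differences of opposite sign in its probe sets, 0.10 in the brighter, whose suffix is _x_at, and -0.15 in the other, with levels of 4.34 in f/f and 4.44 and 4.19 in d/d. Its groups overlapped in both, and without the _x_at probe set the gene's difference is the negative one. Neither gene passed, with a limma adjusted p of 0.700 for Wnt10a and 0.840 for Wnt5b. For Wnt16, the measured genes on each side, Cped1 and Fam3c, had log2 differences of -0.37 and 0.081 with overlapping groups. For Wnt7a the neighbour Fbln2, a matrix protein gene, had -0.42 with all d/d arrays below f/f (limma adjusted p = 0.335). Over all genes, groups did not overlap in 16.5%, in either direction. The neighbour on the other side of Wnt7a, 4930471M09Rik, lay below 2.69 on all 6 arrays and had 0.11 with overlapping groups.

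**Figure D2:**
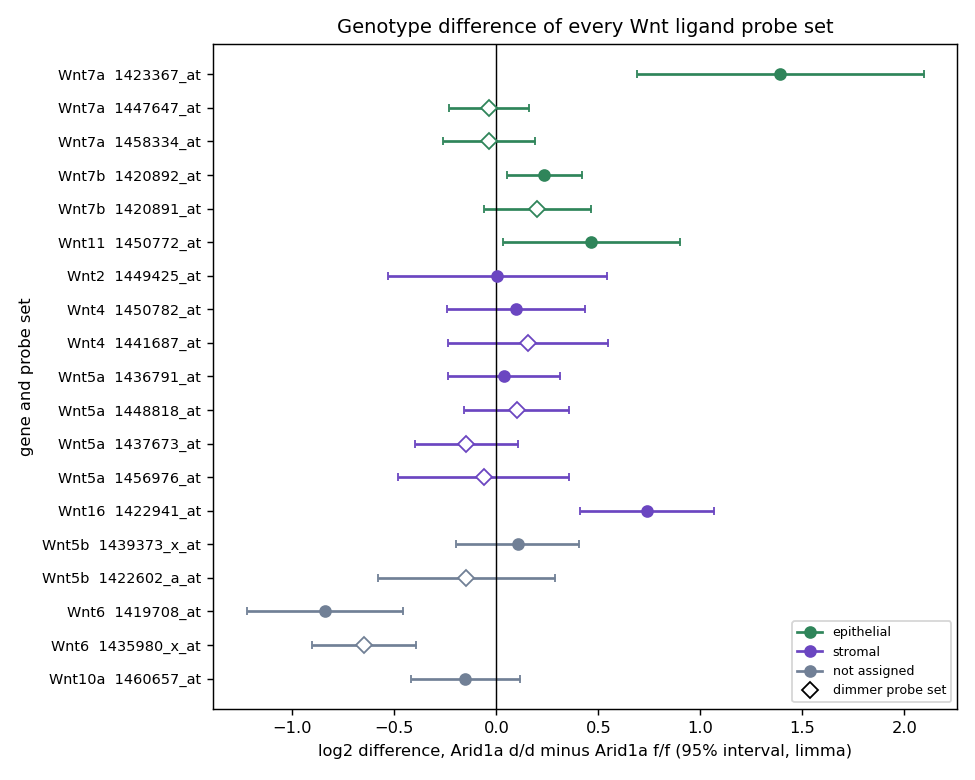
Log2 difference, d/d minus f/f, of each of the 19 Wnt ligand probe sets (points) with its 95% interval from the limma fit over all probe sets; open diamonds are dimmer probe sets of a gene and colours give the compartment. The 2 Wnt6 probe sets lie together at -0.84 and -0.65, the 4 of Wnt5a lie between -0.15 and 0.10, and the 3 of Wnt7a disagree, at 1.39, -0.037 and -0.035.

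Set side by side, the 3 epithelial ligands had a median log2 difference of 0.47, from 0.23 to 1.39, and the 4 stromal ligands a median of 0.067, from 0.0036 to 0.74. The median over all genes was -0.011. By brightest probe set, all 3 epithelial ligands had d/d arrays above f/f arrays without overlap, against 1 of 4 stromal ligands, Wnt16. Groups did not overlap in 16.5% of all genes, in either direction. In the dimmer probe sets of Wnt7a and Wnt7b the groups overlapped. The mean deviation of the epithelial ligands from their f/f means was 0.58, 0.85 and 0.66 in d/d 1, 2 and 3 and -0.04 to 0.06 in f/f. For the stromal ligands it was 0.21, 0.13 and 0.32 in d/d and -0.11 to 0.11 in f/f, and Wnt16 carried most of it. The epithelial mean was also uneven: Wnt7a, by 1 of its 3 probe sets, deviated by 0.62, 2.04 and 1.52 in d/d 1, 2 and 3. Wnt11 deviated by 0.92, 0.24 and 0.24, and Wnt7b by 0.20, 0.28 and 0.23. No test of the compartments against each other was made, since the genes were chosen with results known. Without d/d 1 the epithelial median was 0.25, as Wnt11 then stood at 0.24, and the stromal median was 0.16. Over the fits that leave out 1 array the epithelial median ran from 0.25 (without d/d 1) to 0.58, and the stromal median from 0.014 (without d/d 3) to 0.18 (without d/d 2), with 0.020 without f/f 2, 0.14 without f/f 1 and 0.15 without f/f 3.

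**Figure D3:**
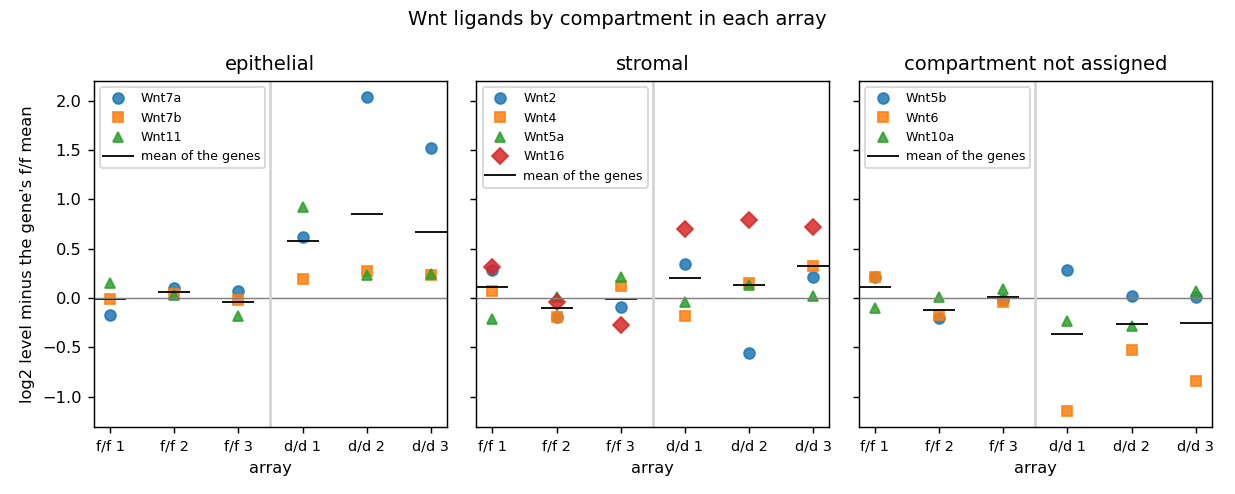
Log2 level of each ligand minus its own f/f mean (vertical axis) in each array, by compartment; black bars are the mean of the genes shown. The epithelial mean is 0.58 to 0.85 in d/d, with Wnt11 highest in d/d 1 and Wnt7a highest in d/d 2; among stromal ligands Wnt16 stands above the rest in d/d, and among the others Wnt6 stands below 0.

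The tissue is a whole uterus, so more cells of a type and more RNA per cell cannot be told apart. Over all genes 1.14% passed. At an unadjusted limma p below 0.05, 5.29% of all genes were higher and 6.88% lower in d/d. Of 11 measured epithelial markers, 2 rose and 0 fell, Muc1, a surface mucin (1.03), and Cdh1, the epithelial cadherin (1.00), with limma adjusted p of 0.0178 and 0.0314. By the unadjusted rule 5 of the 11 markers were higher and 0 lower. Their summed intensity was 2956 to 3591 in f/f and 4208 to 4434 in d/d, while their median log2 difference was 0.21 and 4 of the 11 had a negative difference, among them Calb1, a calcium-binding protein, at -1.21. With the mean of the epithelial list subtracted in each array, the log2 difference was 1.20 for Wnt7a, 0.045 for Wnt7b and 0.28 for Wnt11. The groups of Wnt7a still did not overlap, and those of Wnt7b and Wnt11 then did. After the same subtraction Wnt16 stood at 0.55 and Wnt6 at -1.03, with groups apart in both. Of 7 measured glandular markers 2 fell, Foxa2 (-1.41) and Cxcl15 (-3.71), and 0 rose. The summed intensity of the 7 was 82.8 to 133 in f/f and 45.1 to 47.9 in d/d. Their median log2 difference was only -0.16, and 2 of the 7 lay at or below the median of all probe sets. Of 15 stromal markers 1 fell, Thy1, and 0 rose. By the unadjusted rule 5 of the 15 were lower and 1 higher, and 14 had a negative difference. Their summed intensity was 20389 to 22525 in f/f and 16822 to 19658 in d/d. Fat markers had a summed intensity of 669 to 1064 in f/f and 263 to 555 in d/d, with 0 of 7 passing and 6 lower at an unadjusted limma p below 0.05. Endothelial markers had a summed intensity of 734 to 786 in f/f and 426 to 593 in d/d, with 0 of 6 passing and 4 lower at an unadjusted limma p below 0.05. All 8 smooth muscle markers had a negative difference, with 0 passing and 1 lower at an unadjusted limma p below 0.05, and sums of 5824 to 6731 in f/f and 4739 to 6336 in d/d. The summed intensity of 9 cell cycle genes was 487, 560 and 970 in f/f and 400, 1295 and 1135 in d/d, so d/d 1 was the lowest d/d array in this list as in Wnt7a. All 9 had a positive difference, with a median of 0.28, and 0 of the 9 passed, also at an unadjusted limma p below 0.05. The subtraction of the epithelial list is a description. The part of epithelial, glandular, stromal, fat, endothelial, smooth muscle and dividing cells in the Wnt values was not tested.

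The genes whose profile over the 6 arrays lay nearest to that of Wnt7a, the 1 member with a log2 difference of at least 1, were Dach2, Akr1c19, Lgr5, Il17re and Msx2. Nearness was the root mean square difference of log2 values, each gene centred on its own mean, over 10978 other genes whose mean over the 6 arrays lay above the median level. Dach2 met this through its d/d arrays: it stood at 2.39, 2.53 and 2.72 in f/f, with a mean of 2.55 below 2.69, so background limits its values there. It was 0.12 for Dach2, a transcription factor, 0.13 for Akr1c19, an aldo-keto reductase, 0.17 for Lgr5, the R-spondin receptor and a target of beta-catenin, 0.21 for Il17re, an interleukin receptor, and 0.23 for Msx2, a homeobox factor of the Müllerian duct. Lgr5 had a log2 difference of 1.40 ± 0.29 (SE; limma adjusted p = 0.0790), Il17re rose by 1.53 ± 0.23 (SE; limma adjusted p = 0.0274), and Dach2, Akr1c19 and Msx2 had 1.19, 1.20 and 1.05 and did not pass. Genes picked as nearest to Wnt7a must share its difference, so these values are a description.

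**Figure D4:**
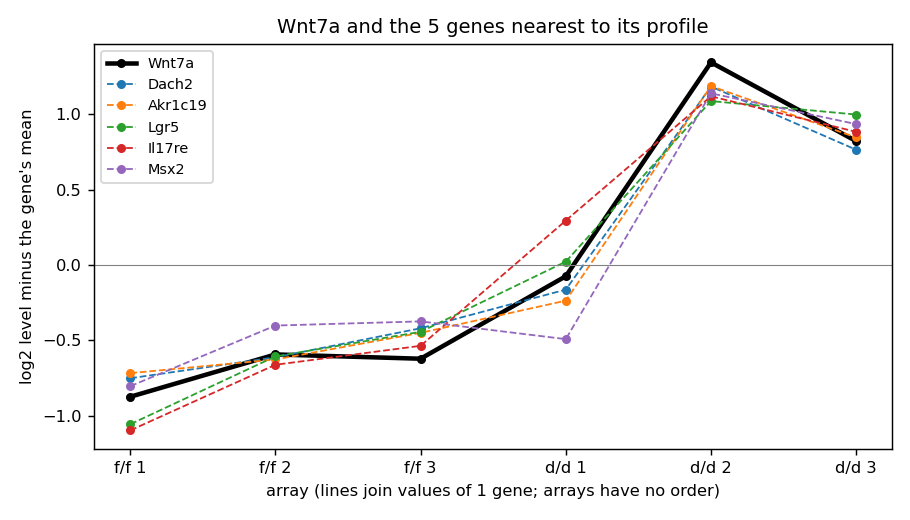
Log2 level minus the gene's own mean (vertical axis) in each array for Wnt7a (black) and the 5 genes nearest to its profile (dashed). In all 6 genes d/d 2 and d/d 3 are the highest arrays; d/d 1 lies between them and the f/f arrays, except for Msx2, where it lies among f/f.

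The remaining Wnt pathway was read from lists. Of the other 9 Wnt ligands 0 passed, 6 lay at or below the median of all probe sets, and their median log2 difference was -0.092; Wnt9a, at 5.50 and 5.23, had -0.27. Among 7 genes of Wnt processing and secretion 0 passed, with Gpc3, a glypican that binds Wnt proteins, at -0.58 and Wls, the carrier that brings them to the cell surface, at 0.25. Among 16 receptors 0 passed, with Fzd5 at 0.43 and Fzd4 at -0.53. Among 9 R-spondins and their receptors 0 passed, with Lgr5 at 1.40 and Rspo1 at -0.45. Of 14 secreted antagonists 0 passed, 5 lay at or below the median of all probe sets, and 12 had a negative difference, against 53.4% of all genes. The antagonists had a median of -0.097, with Dkk3 at -0.34 and Sfrp4 at -0.33. Of 22 transducers and 17 target genes 0 passed; the medians were 0.015 and -0.024, with Lef1, which both lists hold, at -0.56. At an unadjusted limma p below 0.05, where 5.29% of all genes were higher and 6.88% lower, the antagonists had 4 genes lower and 0 higher, the receptors 4 lower and 2 higher, the targets 2 lower and 3 higher, and the transducers 2 lower and 1 higher. The other ligands had 1 lower and 0 higher, and the secretion genes and the R-spondin list each had 1 lower and 1 higher.

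**Figure D5:**
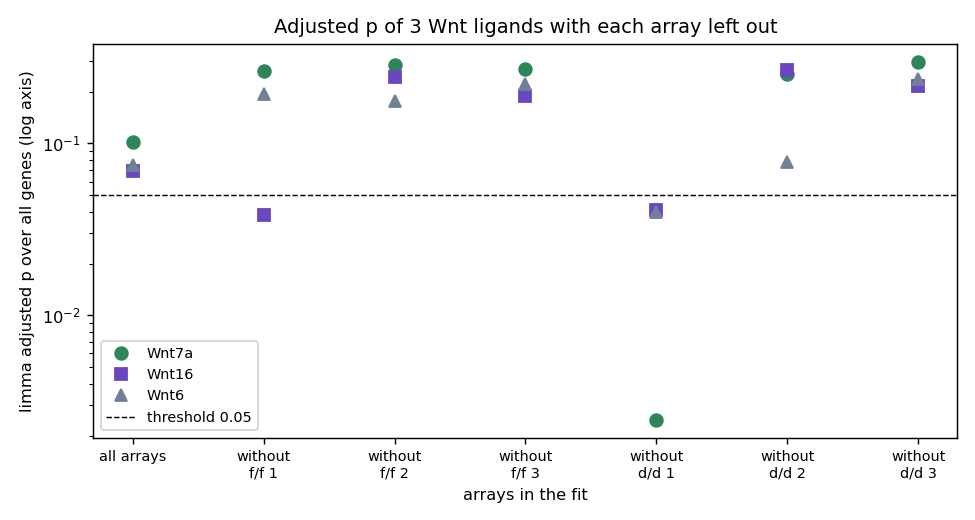
Limma adjusted p over all genes (log axis) of Wnt7a, Wnt16 and Wnt6 with all arrays and with each array left out. All 3 lie below the threshold of 0.05 without d/d 1, Wnt16 also lies below it without f/f 1, and all lie above it in the other fits.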

How the data were processed

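Each sample gave 500 ng of total RNA for biotin-labelled cRNA, per the labels. The deposited values are intensity values on a linear scale, 1 per probe set and array, and RMA is named for them in the submitters' processing notes, without settings. RMA brings arrays to a shared distribution and compresses differences near background. The log2 of each intensity was taken with no added constant. The platform annotation gave 1 gene symbol to 31562 of 41420 probe sets, and 0 columns were left out.

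The genotype contrast was fitted by limma 3.58.1 under R 4.3.3 (lmFit, eBayes, 2-sided, no covariate), over all probe sets and over the brightest probe set of each gene, and tested on simulated data. With 3 arrays per genotype, whose number limits the precision, p-values reflect only the spread between them, part of which may be technical. The members and gene lists were chosen with earlier results of these data known. All 10 members were named; of other lists, up to 3 genes of smallest p, and for Wnt7a the 5 nearest genes. Alternatives were a replicate block, trended and robust variance, array weights, repeated quantile normalization, median centring, filters on dim, _x_at and _s_at probe sets, left-out arrays, a looser threshold and means of probe sets. Subtraction of the epithelial list was added after seeing the data.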

Additional observations from a re-analysis of the deposited data

How the results depend on the processing

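In no setting did Wnt7a, Wnt7b, Wnt11, Wnt16, Wnt6 or Wnt10a change sign; Wnt10a has no value without dim probe sets, and for the 5 genes with separate groups no left-out array could turn the sign. The count of Wnt genes past the threshold was 0 with all arrays and 2 with the replicate block, 1 with an intensity trend and robust variance, 2 with array weights, 1 when a gene's probe sets were averaged, 2 without both arrays numbered 1 and 2 at an adjusted p under 0.10. Wnt probe sets numbered 2 with the block, 1 with array weights, 2 without both arrays numbered 1 and 3 at 0.10. Wnt7a passed with the block (limma adjusted p = 0.0232), array weights (0.0312) and without both arrays numbered 1 (0.00839), Wnt16 in these (0.0418, 0.0367 and 0.0144) and with trend and robust variance (0.0468). The replicate number was not taken to pair the arrays in the main fit. The deviations from group means correlated, number by number, at 0.461, 0.0228 and 0.178. Arrays of unlike number were not compared in this way, so these values cannot show whether the number pairs the arrays. Over the whole array, probe sets numbered 217 and genes 192, and 574 and 457 with the block, 329 and 381 with array weights, 462 and 403 at 0.10, and 657 and 540 without both arrays numbered 1. Leaving out single arrays gave 37 to 971 probe sets, 26 to 821 genes, 0 to 1 Wnt probe sets, 0 to 3 Wnt genes and an epithelial median of 0.25 to 0.58. The differences that changed sign were near 0: Wnt2 at -0.065 with array weights, -0.029 without both arrays numbered 1 and -0.19 with the epithelial list subtracted; Wnt5b at -0.15 without _x_at, -0.022 with the mean of probe sets and -0.085 after subtraction; Wnt5a at -0.018 with the mean of probe sets, -0.030 without both arrays numbered 1 and -0.15 after subtraction; and Wnt4 at -0.093 after subtraction. Without single arrays they ranged from -0.17 to 0.28 for Wnt2, -0.019 to 0.24 for Wnt4 and -0.068 to 0.14 for Wnt5a. The looser threshold gives more calls by construction; for the other settings the cause was not tested.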
